A study of Mus musculus with 8 samples.

Results

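The replication-dependent histone genes are the intronless, clustered genes that supply the bulk of the histones of new chromatin. They were taken here as every entry of the tables with 1 symbol of the form Hist1h to Hist4h, which gave 64 of 23278 genes. By the histone they encode, 6 are H1, 16 are H2A, 18 are H2B, 12 are H3 and 12 are H4 genes. The Hist1 cluster on mouse chromosome 13 holds 51 of them, Hist2 on chromosome 3 holds 9, Hist3 on chromosome 11 holds 3, and Hist4h4 lies alone on chromosome 6. A further 3 entries, each joining a pair of histone symbols, were left out. Hist3h2bb-ps is a pseudogene by its symbol and was counted with H2B.

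The values come from RNA sequencing of sorted CD4+CD8+ double-positive thymocytes of C57BL/6 mice, with 8 libraries in 4 groups of 2. Hdac3KO DP1 and WT DP1 are GFP+ cells with low surface CD5 and low TCRb, and Hdac3KO DP2 and WT DP2 are GFP+ cells with high CD5 and intermediate TCRb. The Hdac3KO animals carried floxed Hdac3 alleles (Hdac3F/F) with LCK-Cre, a Cre whose promoter is active in the T lineage, and the WT animals were Hdac3+/+. The series text does not settle whether the Hdac3+/+ animals carried LCK-Cre too, and the ages of the animals and the GFP reporter are not given in the sources used here. Libraries were made from pools of RNA after removal of ribosomal RNA, which keeps transcripts without a poly(A) tail. Each of the authors' 4 deposited tables holds 1 FPKM per gene and group, a fragment count scaled by gene length and library size. The spread of the 2 libraries behind a value was not used here, and neither was the depth of a library, which is unknown.

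Cells make most of their histones in S phase, when DNA is copied and needs new nucleosomes. H2A, H2B, H3 and H4 form the core around which DNA winds, and H1 binds the linker between cores. The mRNAs of these genes end in a stem-loop in place of a poly(A) tail. The stem-loop binding protein SLBP and the U7 snRNP direct that end, and the same stem-loop governs the decay of the mRNA when DNA synthesis stops. In the thymus, cells divide rapidly as they become double positive and then leave the cell cycle, so the level of these mRNAs is commonly read as a mark of cells in S phase.

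The 3′ stem-loop is the element that sets this mRNA class apart, and it was searched for in the longest coding transcript of each gene in GENCODE M21 (mm10). The search took a stem of 6 bases that starts with GG, a loop of 4 bases that starts with TT, and the paired stem, on the transcript strand within 120 bases after the stop codon. Of the 63 genes with a coding transcript, 48 had at least 16 annotated bases after the stop codon, and 40 of these held the stem-loop (83.3%), against 7 of 19358 other genes (0.036%). It began 21 to 58 bases after the stop codon, with a median of 31. In 25 of the 40 genes the annotated transcript ran 50 or more bases past the stem, so these models do not end there. Of the 63 coding transcripts 59 had no exon junction. There were 6 distinct stem-loops, and the commonest stood in 23 genes. The sites that follow give 1 gene for each of the 6, and Hist4h4 as well, with the paired stem in capitals and 5 bases on each side. In these letters the H1, H2A, H2B and H3 stems were GGCTCT, and the H4 stems were GGCCCT or GGTCCT.
Hist1h2bf (chr13:23573760-23573785, minus strand): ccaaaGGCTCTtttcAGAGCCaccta
Hist1h3c (chr13:23745042-23745067, minus strand): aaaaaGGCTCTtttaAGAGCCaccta
Hist2h2ac (chr3:96220413-96220438, minus strand): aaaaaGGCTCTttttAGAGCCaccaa
Hist1h4d (chr13:23581945-23581970, plus strand): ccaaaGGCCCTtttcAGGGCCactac
Hist2h4 (chr3:96262934-96262959, minus strand): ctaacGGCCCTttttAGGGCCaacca
Hist1h4b (chr13:23757361-23757386, plus strand): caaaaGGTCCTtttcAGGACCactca
Hist4h4 (chr6:136803993-136804018, minus strand): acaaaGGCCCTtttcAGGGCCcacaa

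Promoters are shown for 3 genes that the results below turn on, from RefSeq on GRCm38.p6, as 250 bases before and 50 after the annotated start. Windows were matched for 57 of the 64 genes. The motifs searched, on both strands, were TATAAA (letters of the TATA box), CCAAT (which NF-Y binds) and the octamer ATTTGCAT (which Oct1 binds). Matches counted at any position, so a window with TATAAA need not hold a TATA box at its usual place. In Hist1h2bf, for example, TATAAA lay 209 bases before the start, and in Hist1h4a 41 bases after it. TATAAA stood in 57.9% of the histone windows and in 14.2% of the windows of all 27025 genes. CCAAT stood in 86.0% of the histone windows and 37.9% of all windows, and the octamer in 22.8% and 1.75%. All 13 windows with the octamer belonged to H2A genes (7 of 15) or H2B genes (6 of 15). Windows of neighbouring H2A and H2B genes can overlap, as for Hist1h2ae and Hist1h2bg, so 1 site can count in both genes. CCAAT was in every H1, H2A, H2B and H3 window and in 3 of 11 H4 windows. The motifs are in capitals, and none overlaps another in these 3 windows. Hist2h2bb held the octamer 48 bases before the start, Hist1h1b held TATAAA, and the window of Hist4h4 held none of the 3.
Hist2h2bb (chr3:96269450-96269749, plus strand): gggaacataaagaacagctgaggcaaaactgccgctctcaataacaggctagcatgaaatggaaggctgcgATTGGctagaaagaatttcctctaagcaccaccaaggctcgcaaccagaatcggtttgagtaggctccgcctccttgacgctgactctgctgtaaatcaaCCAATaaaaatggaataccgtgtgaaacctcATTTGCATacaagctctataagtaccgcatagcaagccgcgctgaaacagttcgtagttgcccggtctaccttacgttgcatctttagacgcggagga
Hist1h1b (chr13:21780576-21780875, minus strand): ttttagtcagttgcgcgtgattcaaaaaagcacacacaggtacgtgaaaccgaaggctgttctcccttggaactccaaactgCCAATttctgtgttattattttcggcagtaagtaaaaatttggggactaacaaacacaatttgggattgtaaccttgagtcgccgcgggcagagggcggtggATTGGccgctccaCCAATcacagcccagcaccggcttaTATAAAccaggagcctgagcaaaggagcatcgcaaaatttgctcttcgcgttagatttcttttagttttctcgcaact
Hist4h4 (chr6:136804382-136804681, minus strand): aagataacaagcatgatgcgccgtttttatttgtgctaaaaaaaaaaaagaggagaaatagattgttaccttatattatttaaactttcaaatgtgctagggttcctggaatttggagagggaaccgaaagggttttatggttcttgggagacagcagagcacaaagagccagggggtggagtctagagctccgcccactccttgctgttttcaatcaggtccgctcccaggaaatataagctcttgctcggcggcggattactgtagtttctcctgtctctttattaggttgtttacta

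Many of these genes are near copies, which bears on how a read can be assigned. All 12 H4 genes encode 1 protein of 103 residues, with 85.3% to 98.4% identity between the coding sequences of any pair. The 12 H3 genes encode 3 proteins, and the coding sequences of Hist2h3b and Hist2h3c2 are 99.8% identical. Among H2A coding sequences of equal length 24 of 79 pairs were at least 98% identical, and among H2B 14 of 91. How the authors' counting shared reads among such copies is not given in the sources used here, so the value of a single gene is less certain than the sum of a class. Gene models were short: 50 of the 64 loci span fewer than 1000 bases, and 29 models cover exactly the coding sequence. Hist1h1e and Hist1h2be were given the same locus in the files, and the loci of Hist1h2bq, Hist1h4n and Hist2h2aa2 do not overlap the GENCODE genes of those names.

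The targeted gene was lower in both knockout groups. Hdac3 had 11.7 FPKM in Hdac3KO DP1, against 38.1 FPKM in WT DP1, in the authors' deposited table (log2 change -1.70 ± 0.42, SE, q = 0.000879). It had 15.4 FPKM in Hdac3KO DP2, against 29.7 FPKM in WT DP2 (-0.95 ± 0.28, q = 0.0131 in the authors' deposited table). All 9 markers of double-positive thymocytes were present, and B cell, myeloid and thymic epithelial markers summed to between 3.43 and 18.9 FPKM a list in each group of the genotype tables, with Cd14 at no more than 0.0916 FPKM. Itgam, a myeloid marker, rose in both genotype tables, Alas2 and Psmb11 rose in DP1, and 5 of the 9 double-positive markers rose in Hdac3KO DP2. Of 4 markers of the earlier double-negative stage, Il2ra rose, with 19.6 FPKM in Hdac3KO DP1 and 3.49 FPKM in WT DP1, and 26.3 FPKM in Hdac3KO DP2 and 4.41 FPKM in WT DP2. Hhex fell, with 8.53 FPKM in Hdac3KO DP1 and 47.8 FPKM in WT DP1, and 21.3 FPKM in Hdac3KO DP2 and 220.6 FPKM in WT DP2. Cd44 fell in DP2, with 0.721 FPKM in Hdac3KO DP2 and 4.37 FPKM in WT DP2, and was not tested in DP1. Kit was not tested at either stage. The list summed to 30.3 FPKM in Hdac3KO DP1 and 53.7 FPKM in WT DP1, and to 49.7 FPKM in Hdac3KO DP2 and 229.8 FPKM in WT DP2, sums that follow Hhex. The part of these cells in the histone results was not tested. Sex differed between the genotypes, since Xist stood at 208 FPKM in Hdac3KO DP1 and 139 FPKM in Hdac3KO DP2, against 0.0945 FPKM in WT DP1 and 0.243 FPKM in WT DP2. Genotype and sex cannot be told apart in either genotype comparison. Tables were normalized separately, and the histone values of 1 group differed between its tables by median factors of 1.14 for WT DP1, 0.999 for Hdac3KO DP1, 0.907 for Hdac3KO DP2 and 0.958 for WT DP2.

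Together the 64 genes made up a visible part of the transcriptome, and a few genes carried most of it. Their summed level was 15889 FPKM in Hdac3KO DP1 and 32294 FPKM in WT DP1, which is 3.11% and 5.29% of the FPKM of all genes. In the DP2 table the sums were 6145 FPKM in Hdac3KO DP2 and 7259 FPKM in WT DP2, or 1.004% and 1.43% of all FPKM. The sum in Hdac3KO was thus 49.2% of WT in DP1 and 84.7% of WT in DP2. The 7 highest genes held the larger part of each DP1 sum. Hist2h2bb, an H2B gene, was the highest in DP1, with 1974 FPKM in Hdac3KO DP1 and 3832 FPKM in WT DP1, and supplied 54.5% and 51.7% of the H2B sum. Hist2h2ac supplied 47.2% and 45.6% of the H2A sum in the same groups. H4 was spread more evenly, and its highest gene, Hist1h4d, gave 19.5% and 20.0% of that sum. Hist1h1t, Hist1h2aa and Hist1h2ba, whose products are known from the testis, reached no more than 14.04 FPKM in any group of the genotype tables. Hist1h2ad was listed at 0 in every group, and Hist1h2ad, Hist1h2ap, Hist1h2bq, Hist2h2aa2 and Hist2h3c1 were tested in none of the tables.

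**Figure D1:**
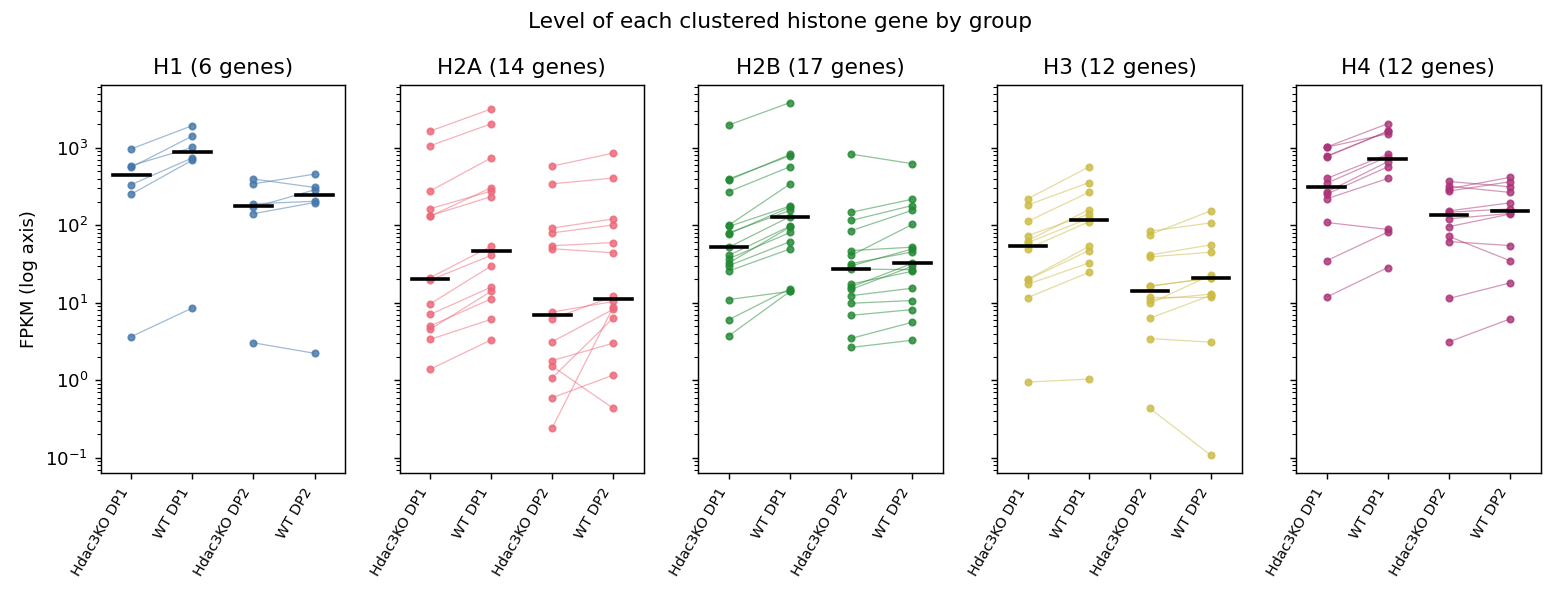
Deposited FPKM (log axis) of each histone gene in the 4 groups, from the 2 genotype tables, in a panel per class; lines join a gene's Hdac3KO and WT values at 1 stage, black bars are medians, and 3 genes at 0 in a group are not drawn. Nearly every line in DP1 slopes up to WT, and the DP2 lines are flatter, with H1, H2A, H2B, H3 and H4 sums in Hdac3KO DP2 at 67.6% to 91.1% of WT DP2.

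The DP1 comparison asks which genes differ without Hdac3 in cells with little surface CD5 and TCRb, and histone genes of all 5 classes were lower there. Of 58 genes tested 50 fell and 0 rose at q of 0.05 or less in the authors' deposited table (Cuffdiff), where 12.9% of all tested genes fell and 10.7% rose. Without adjustment, 54 had p under 0.05 and a lower value and 0 a higher one. The median over the 61 genes with at least 1 FPKM was a log2 change of -1.12, or 2.18-fold lower, against -0.08 over all genes with at least 1 FPKM. Every H1 gene (6 of 6) and every tested H3 gene (11 of 11) fell, as did 10 of 12 H2A, 14 of 17 H2B and 9 of 12 H4 genes. The class sums in Hdac3KO DP1 were between 44.2% (H3) and 51.2% (H4) of those in WT DP1. These are bulk samples, in which fewer cells in S phase and less histone mRNA per cell cannot be told apart.

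Linker histone genes illustrate the size of the DP1 difference. Hist1h1a had 968 FPKM in Hdac3KO DP1, against 1934 FPKM in WT DP1, in the authors' deposited table (-0.998 ± 0.26, q = 0.00207). Hist1h1b had 560.4 FPKM in Hdac3KO DP1 and 1420.2 FPKM in WT DP1 (-1.34 ± 0.33, q = 0.000879 in the authors' deposited table). The H1 gene with the largest change was Hist1h1e, with 252 FPKM in Hdac3KO DP1, against 694 FPKM in WT DP1 (-1.46 ± 0.36, q = 0.000879 in the authors' deposited table). The remaining H1 genes fell by 0.78 to 1.23 on the log2 scale, Hist1h1c the least. Hist1h1t passed from a low level, at 3.66 FPKM in Hdac3KO DP1 and 8.58 FPKM in WT DP1.

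Core histone genes differed by similar amounts. For H2A, Hist2h2ac had 1642 FPKM in Hdac3KO DP1 and 3169 FPKM in WT DP1 (-0.95 ± 0.27, q = 0.00476 in the authors' deposited table), and Hist1h2ak had 1062 and 2043 FPKM in the same groups (-0.94 ± 0.26, q = 0.00303). Hist1h2ah was the H2A gene with the largest change that passed, at 4.55 FPKM in Hdac3KO DP1 and 14.1 FPKM in WT DP1 (-1.63 ± 0.62, q = 0.0388 in the authors' deposited table). For H2B, Hist2h2bb differed by -0.96 ± 0.26 (q = 0.00352) and Hist1h2bb, with 398 FPKM in Hdac3KO DP1 and 789 FPKM in WT DP1, by -0.99 ± 0.27 (q = 0.00255 in the authors' deposited table). A larger change was that of Hist1h2bf, which had 100.7 FPKM in Hdac3KO DP1 and 341 FPKM in WT DP1 (-1.76 ± 0.43, q = 0.000879 in the authors' deposited table). The most abundant H2B gene thus changed less than the class median of -1.10.

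Among H3 genes Hist1h3c had 220.1 FPKM in Hdac3KO DP1, against 567 FPKM in WT DP1 (-1.37 ± 0.34, q = 0.000879 in the authors' deposited table). Hist1h3e had 183 FPKM and 355 FPKM in the same groups (-0.96 ± 0.27, q = 0.00476 in the authors' deposited table), and Hist2h3c2 had 20.2 FPKM and 53.4 FPKM (-1.40 ± 0.35, q = 0.000879). The H4 genes give a case of 1 protein made from many loci, and their changes were not alike. Hist1h4d had 1024 FPKM in Hdac3KO DP1, against 2048 FPKM in WT DP1 (-0.9994 ± 0.25, q = 0.000879 in the authors' deposited table). Hist1h4a had 269 FPKM in Hdac3KO DP1 and 661 FPKM in WT DP1, a log2 change of -1.30 ± 0.32 (q = 0.000879 in the authors' deposited table). Hist2h4 did not pass, with 1018 FPKM in Hdac3KO DP1 and 1517 FPKM in WT DP1 (-0.58 ± 0.25, q = 0.0777 in the authors' deposited table). Hist4h4, the gene outside the clusters, was the 1 gene of 61 with a higher value in the knockout, at 109 FPKM in Hdac3KO DP1 and 88.3 FPKM in WT DP1 (0.30 ± 0.25, q = 0.406 in the authors' deposited table). The 8 tested genes that did not pass also include Hist1h2ba (-1.90 ± 0.79, q = 0.0625) and Hist1h4n (-1.27 ± 0.53, q = 0.0639), whose changes were large but so were their SEs.

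**Figure D2:**
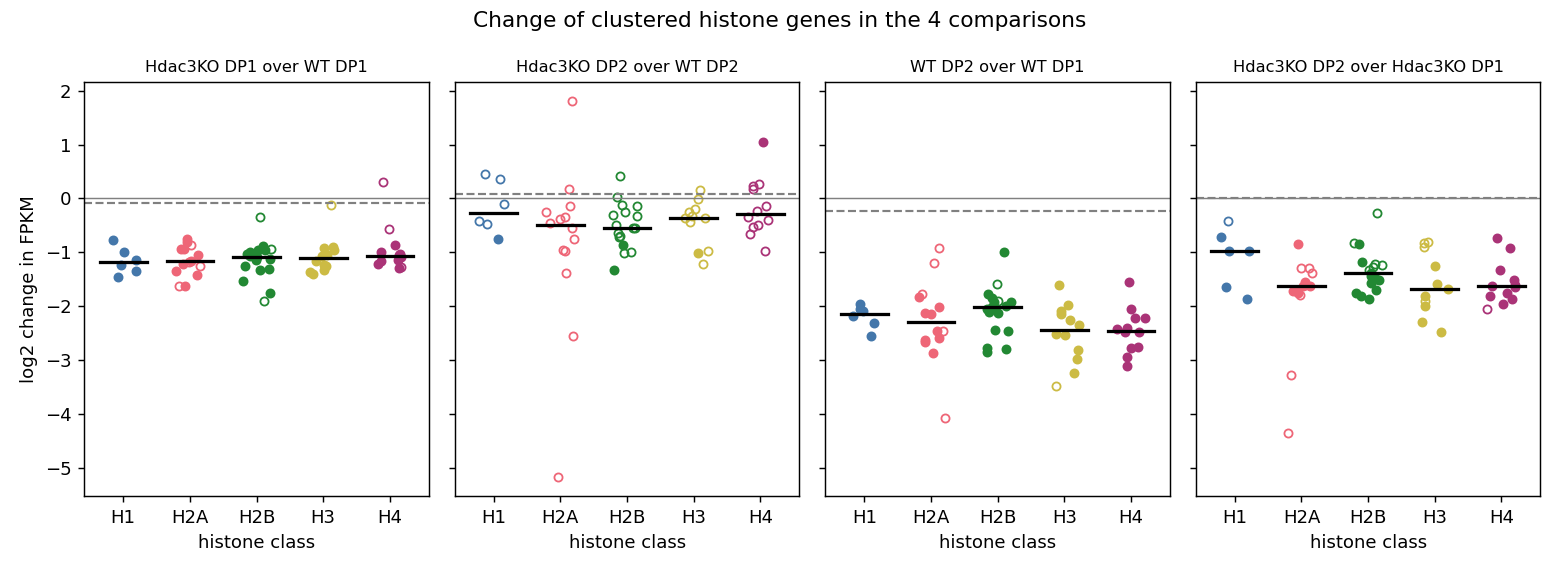
Log2 change of each histone gene with at least 1 FPKM, by class, in the 4 comparisons; filled points passed the deposited q of 0.05, open points did not or were not tested, black bars are class medians and the dashed line is the median over all genes with at least 1 FPKM. The median of the histone genes lies at -1.12, -0.39, -2.23 and -1.58 in the panels from left to right.

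Transcript length moved with the DP1 result, since other short mRNAs were lower as well. Among genes that reached 10 FPKM in each of the 2 groups, the median log2 change of the other genes was 0.20 where the longest transcript exceeds 4000 bases and -0.20 at 2000 to 4000 bases. It was -0.49 at 1000 to 2000, -0.70 at 600 to 1000 and -0.28 up to 600 bases, a bin that also holds small RNAs. The histone genes in those 2 shortest bins had medians of -1.14 and -1.07. With a lowess curve of change on transcript length subtracted, the histone median was -0.48 and 4 genes were called lower and 0 higher, where 5.7% and 8.95% of all tested genes were so called. These 4 were Hist1h1d (-1.48, q = 7.6e-05), Hist1h1e (-1.06, q = 0.0283), Hist1h2ac (-0.89, q = 0.0207) and Hist3h2a (-0.87, q = 0.0318), named because they are all the calls, by a normal test with Benjamini-Hochberg adjustment over all genes. Their longest GENCODE transcripts run from 1930 to 7425 bases, so they lie among the longer histone transcripts there. All 4 transcripts run past the stem-loop, by 4884 bases in Hist1h1d, 1153 in Hist1h1e, 2010 in Hist1h2ac and 1643 in Hist3h2a. Hist1h1d has the 7425 bases, but its locus in the deposited files spans 2977 bases. The values of all 4 after the subtraction thus rest on the GENCODE length. A curve on deposited lengths, or on lengths up to the stem-loop, was not fitted. With the curve fitted without the histone genes the median was -0.53 and the count again 4. The deposited p has a floor of 5e-05, at which 24 of the 58 genes lie, so the SE of those is an upper bound and counts after the subtraction may be too low. The histone genes were thus lower than other mRNAs of their annotated length by value in DP1, while the number called was 50 before the subtraction and 4 after it.

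**Figure D3:**
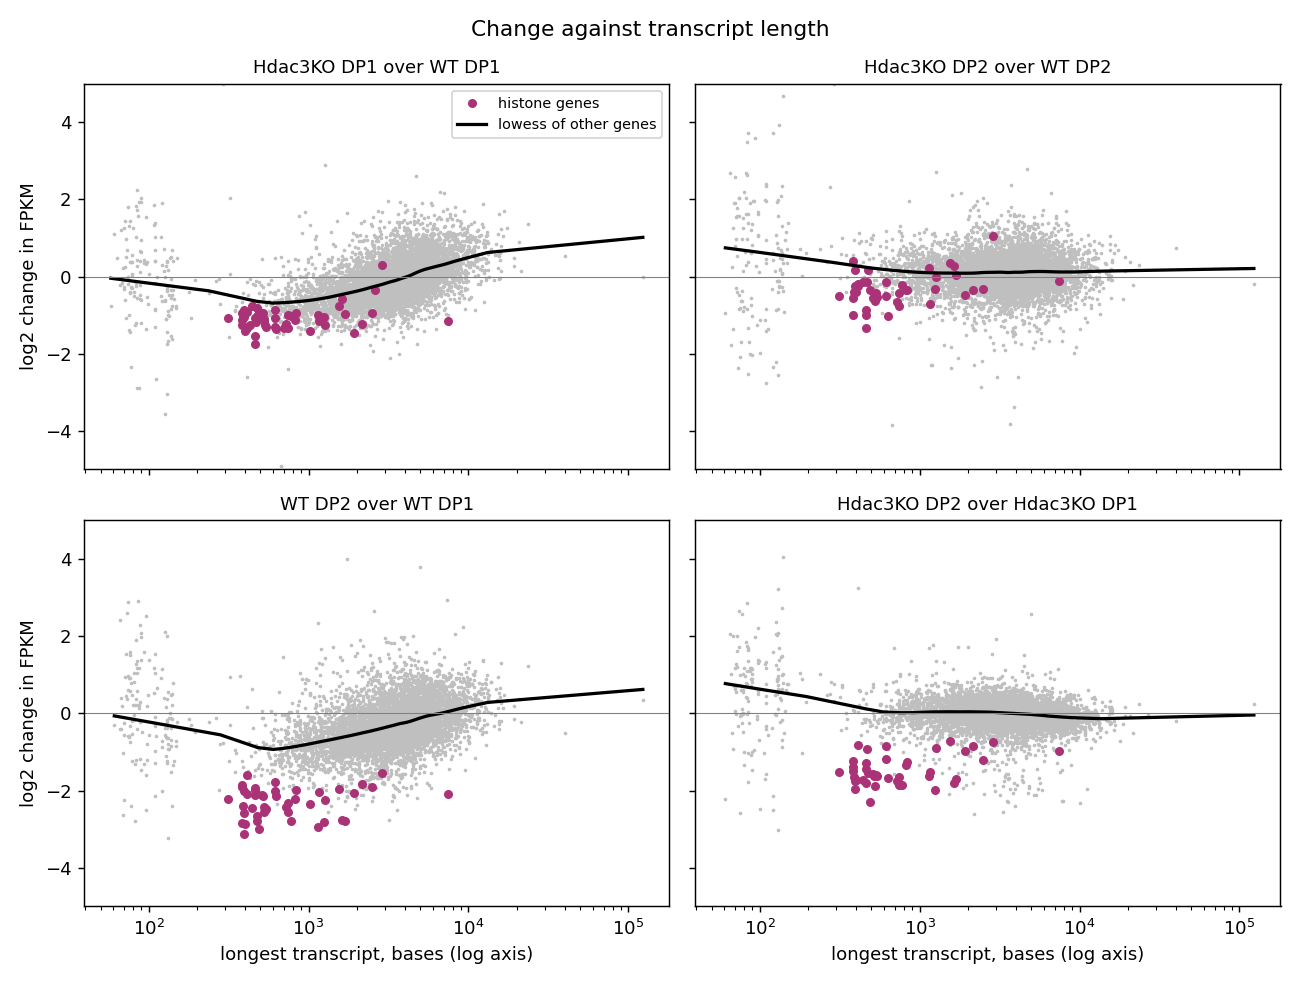
Log2 change against the longest annotated transcript of a gene (log axis, bases) for genes that reached 10 FPKM in each group of a comparison, with histone genes in purple, other genes in grey and a lowess curve through the other genes; grey points beyond 5 are drawn at the edge. In both panels with WT DP1 as the reference the curve drops as transcripts shorten to about 600 bases and climbs again below that, and in the panels without it the other genes' bin medians lie between -0.04 and 0.13 above 600 bases. The histone genes lie under the curve in both stage panels, with medians of -1.53 and -1.65 below it.

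In DP2, the cells with more surface CD5 and TCRb, the same genotype contrast gave few calls. Of 57 genes tested 4 fell and 1 rose in the authors' deposited table, where 4.32% of all tested genes fell and 6.44% rose. The median was -0.39, against 0.08 over all genes with at least 1 FPKM, and 49 of 60 genes had a lower value in Hdac3KO DP2. The genes that fell were Hist1h1b, Hist1h2bf, Hist1h2bj and Hist1h3c, and the gene that rose was Hist4h4. Hist1h1b had 169.9 FPKM in Hdac3KO DP2 and 287 FPKM in WT DP2 (-0.76 ± 0.24, q = 0.0237 in the authors' deposited table). Hist1h2bf had 40.8 FPKM in Hdac3KO DP2, against 103 FPKM in WT DP2 (-1.33 ± 0.41, q = 0.0159 in the authors' deposited table). Hist1h3c had 75.9 FPKM in Hdac3KO DP2 and 154 FPKM in WT DP2 (-1.02 ± 0.29, q = 0.00739 in the authors' deposited table). These genes belong to 3 classes, and all had fallen in DP1, as had 50 of the 58 genes tested there. Hist1h2bj, which was named for being one of these calls, had 85.3 FPKM in Hdac3KO DP2 and 156 FPKM in WT DP2 (-0.87 ± 0.30, q = 0.0407 in the authors' deposited table).

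Hist4h4 was the 1 histone gene called higher in any of the 4 tables. It had 72.0 FPKM in Hdac3KO DP2, against 34.95 FPKM in WT DP2, which is 2.06-fold higher (1.04 ± 0.26, q = 0.00134 in the authors' deposited table). Its promoter window held none of the 3 motifs, as did those of Hist1h4b and Hist1h4h, which were not called in DP2. The longest GENCODE transcript of Hist4h4 runs 2445 bases past the stem-loop. Its locus in the deposited files spans 2879 bases, for a coding sequence of 312 bases. How much of its FPKM comes from past the stem-loop was not tested. The abundant genes had small and mixed values in DP2. Hist2h2bb had 829 FPKM in Hdac3KO DP2 and 624 FPKM in WT DP2 (0.41 ± 0.23, q = 0.284 in the authors' deposited table). Hist2h2ac had 582 FPKM in Hdac3KO DP2 and 854 FPKM in WT DP2 (-0.55 ± 0.24, q = 0.119 in the authors' deposited table). Hist1h4d had 368 FPKM and 314 FPKM in the same groups (0.23 ± 0.26, q = 0.666 in the authors' deposited table). By value Hist2h2bb was first in Hdac3KO DP2 and Hist2h2ac first in WT DP2, but neither gene was called in DP2 and the order was not tested.

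By class, the DP2 calls were 1 of 6 H1, 0 of 11 H2A, 2 of 17 H2B and 1 of 11 H3 genes lower, and for H4 0 of 12 lower and 1 higher. Without adjustment, 11 genes had p under 0.05 and a lower value and 1 a higher one. Other genes showed no slope with length in DP2 above 600 bases, where bin medians lay between 0.07 and 0.13, and the bin up to 600 bases had a median of 0.44. With the length curve subtracted 6 histone genes were called lower and 1 higher, where 5.74% and 4.42% of all tested genes were so called, and the median was -0.53.

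The genotype effects of the 2 stages were then compared directly, since a call at 1 stage alone does not show a difference. Of 57 genes tested at both stages, 54 had a less negative or more positive effect in DP2 than in DP1. The median difference (effect in DP2 minus effect in DP1) was 0.70, against 0.20 over all genes tested at both stages, of which 61.6% were positive. After Benjamini-Hochberg adjustment over all genes tested at both stages, 3 histone genes were called with a larger value in DP2 and 0 with a smaller one, where 0.897% and 1.18% of all genes were so called. Without adjustment, 16 had p under 0.05. Hist2h2bb had a difference of 1.37 ± 0.35 (q = 0.0227) and Hist1h4d one of 1.23 ± 0.36 (q = 0.0421), both normal tests of the difference. The third, Hist1h3f (named as one of these calls), had a difference of 1.25 ± 0.35 (q = 0.0383). It had 11.7 FPKM in Hdac3KO DP2 and 11.8 FPKM in WT DP2, and its SE in DP2, 0.13, is imprecise because it is worked back from a change of nearly 0. None of the 3 calls was found by the other route, through the stage tables, where 0 of 58 genes passed and 6 had an unadjusted p under 0.05. By value that route, from the same libraries, went the same way, with 56 of 58 differences positive. Its median difference was 0.82, against 0.30 over all genes. Its median SE was 0.74, against 0.46 through the genotype tables. The SE is an upper bound at the smallest p, where 46 of 59 genes lay in WT and 35 of 58 in Hdac3KO. Through the genotype tables with the length curve subtracted 0 genes were called, and the histone medians were -0.53 in DP2 and -0.48 in DP1. After centring on all genes 1 was called, and with the SE multiplied by 1.5 it was 0. The 57 differences rest on the same 8 libraries, so their shared direction is not 57 separate observations.

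**Figure D4:**
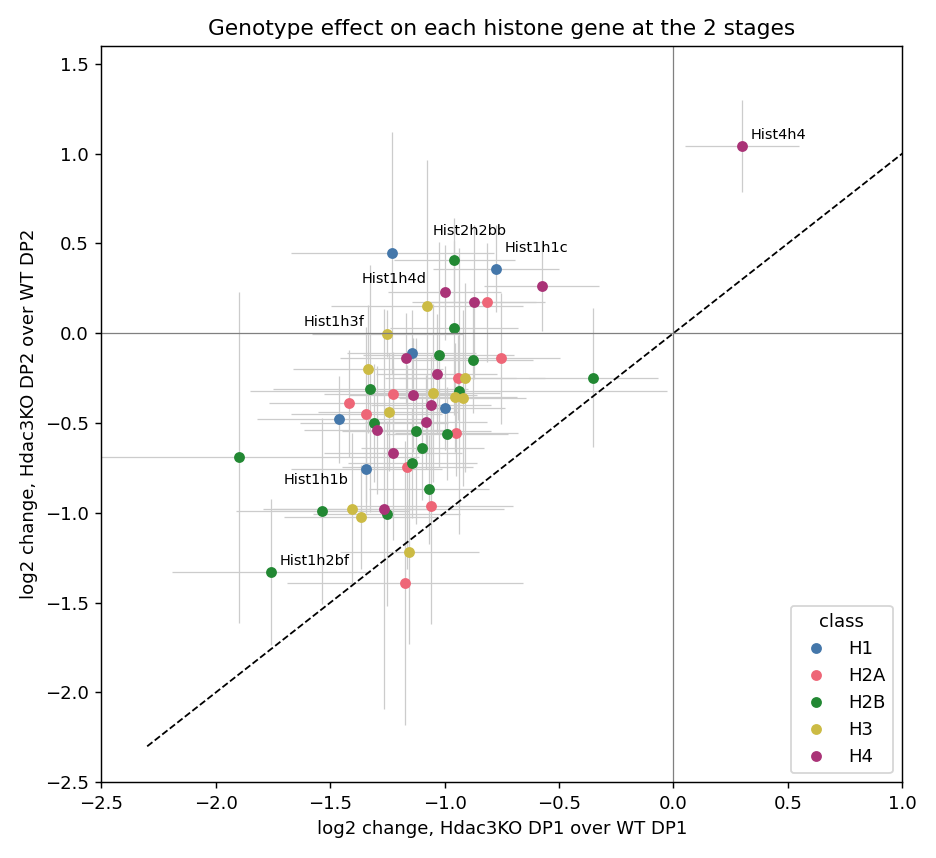
Log2 change of Hdac3KO over WT in DP2 (vertical axis) against that in DP1 (horizontal axis) for 56 histone genes tested in both, coloured by class, with bars of 1 SE worked back from the deposited p; Hist1h2ah, with an SE of 4.51 in DP2, is not drawn, and the dashed line marks equal effects. Most genes lie above the line, and Hist4h4 is the 1 gene with positive values on both axes.

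The stage comparison sets DP2 cells against DP1 cells of the same genotype, and in WT the histone genes were much lower in DP2. This comparison shares the WT DP1 libraries with the DP1 genotype comparison, so their values are given side by side and not as 2 pieces of evidence. Of 59 genes tested 53 fell and 0 rose in WT DP2 relative to WT DP1 in the authors' deposited table, where 16.8% of all tested genes fell and 5.56% rose. The summed level was 6966 FPKM in WT DP2 and 36780 FPKM in WT DP1, or 18.9%. Without adjustment, 56 genes had p under 0.05 and a lower value and 0 a higher one. The median was -2.23, which is 4.69-fold lower, against -0.24 over all genes. All tested H1 (6), H3 (11) and H4 (12) genes fell, with 9 of 13 H2A and 15 of 17 H2B genes, and class sums in WT DP2 were 17.4% (H4) to 21.2% (H1) of those in WT DP1.

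The most abundant H2B gene had the largest change of its class in WT. Hist2h2bb had 602 FPKM in WT DP2, against 4350 FPKM in WT DP1 (-2.85 ± 0.70, q = 0.000835 in the authors' deposited table). Hist1h1b had 276 FPKM in WT DP2 and 1618 FPKM in WT DP1 (-2.55 ± 0.63, q = 0.000835 in the authors' deposited table). Hist1h4b had 52.7 FPKM in WT DP2 and 457.5 FPKM in WT DP1, the largest change among H4 genes (-3.12 ± 0.77, q = 0.000835 in the authors' deposited table). All of these q-values come from the smallest p of the table, where 46 of the 59 genes lie, so q does not rank them. For H2A the largest change that passed was in Hist1h2af, with 115 FPKM in WT DP2 and 847 FPKM in WT DP1 (-2.88 ± 0.71, q = 0.000835 in the authors' deposited table). For H3 it was in Hist1h3b, with 2.98 FPKM in WT DP2 and 28.1 FPKM in WT DP1 (-3.24 ± 0.96, q = 0.00701 in the authors' deposited table). Hist4h4 had the smallest change of the H4 genes, with 33.9 FPKM in WT DP2 and 99.8 FPKM in WT DP1 (-1.56 ± 0.38, q = 0.000835 in the authors' deposited table).

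Length moved with the WT stage result as it did in the other table with WT DP1. The medians of the other genes were -0.07 above 4000 bases, -0.39 at 2000 to 4000, -0.66 at 1000 to 2000, -0.87 at 600 to 1000 and -0.39 up to 600 bases. Histone genes in the 2 shortest bins had medians of -2.23 and -2.40. With the length curve subtracted the histone median was -1.44, and 16 genes were called lower and 0 higher, where 4.67% and 8.52% of all tested genes were so called. The 16 included Hist2h2bb (-2.03, q = 0.0357), Hist1h4b (-2.26, q = 0.0316), Hist1h4d (-2.19, q = 0.0275) and Hist4h4 (-1.17, q = 0.0259). Since 46 of the 59 genes lie at the smallest p, their SE is an upper bound. The count after the subtraction may therefore be too low, and its q-values do not rank the genes by size of change. The 2 tables that hold WT DP1 were thus those with the slope, and no value per library was used here to place it in 1 library.

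In Hdac3KO the other genes showed no such slope above 600 bases, and histone genes were lower in DP2 there too. Of 58 genes tested 42 fell and 0 rose in Hdac3KO DP2 relative to Hdac3KO DP1 in the authors' deposited table, where 4.65% of all tested genes fell and 1.78% rose. The summed level was 5577 FPKM in Hdac3KO DP2 and 15869 FPKM in Hdac3KO DP1, or 35.1%. Without adjustment, 50 genes had p under 0.05 and a lower value and 0 a higher one. The median was -1.58, which is 2.99-fold lower, against 0.01 over all genes. By class 5 of 6 H1, 8 of 12 H2A, 11 of 17 H2B, 7 of 11 H3 and 11 of 12 H4 genes fell. Bin medians of the other genes lay between -0.04 and 0.04 above 600 bases, with 0.49 up to 600 bases. With the length curve subtracted 45 histone genes were called lower and 0 higher, where 4.62% and 1.76% of all tested genes were so called, and the median was -1.64.

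Named genes in the Hdac3KO stage comparison are given next, and differences between classes were not tested. Hist1h1b had 154 FPKM in Hdac3KO DP2 and 561 FPKM in Hdac3KO DP1 (-1.86 ± 0.46, q = 0.00151 in the authors' deposited table). Its change was the largest of the H1 genes, and the H1 sum in Hdac3KO DP2 was 41.6% of that in Hdac3KO DP1, against 32.0% for H2A. Hist1h3g had 8.93 FPKM in Hdac3KO DP2 and 49.7 FPKM in Hdac3KO DP1 (-2.48 ± 0.61, q = 0.00151 in the authors' deposited table). Hist1h2bm had 104.7 FPKM in Hdac3KO DP2 and 384 FPKM in Hdac3KO DP1 (-1.87 ± 0.46, q = 0.00151 in the authors' deposited table). Hist2h2bb had 753 FPKM in Hdac3KO DP2, against 1973 FPKM in Hdac3KO DP1 (-1.39 ± 0.34, q = 0.00151 in the authors' deposited table). The most abundant H2B gene was thus not the one with the largest change of its class in Hdac3KO. For H2A the largest change that passed was that of Hist1h2ak, with 311 FPKM in Hdac3KO DP2 and 1058 FPKM in Hdac3KO DP1 (-1.77 ± 0.44, q = 0.00151 in the authors' deposited table). For H4 it was that of Hist1h4b, with 56.1 FPKM in Hdac3KO DP2 and 219 FPKM in Hdac3KO DP1 (-1.96 ± 0.48, q = 0.00151 in the authors' deposited table). Hist4h4 again had the smallest change of the H4 genes, with 65.5 FPKM in Hdac3KO DP2 and 109 FPKM in Hdac3KO DP1 (-0.74 ± 0.22, q = 0.0131 in the authors' deposited table).

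Genes were also split by position and by promoter letters, as a description. On chromosome 13 the genes fall into a group of 20 between 21715763 and 22043610 and a group of 31 between 23531044 and 23934851 (mm10). In Hdac3KO DP1 relative to WT DP1, 15 of 18 tested genes of the first group and 27 of 29 of the second fell, with medians of -1.11 and -1.14. Of all tested genes 12.9% fell there. In Hdac3KO DP2 relative to WT DP2, 2 of 17 and 2 of 29 fell, with medians of -0.59 and -0.37, where 4.32% of all tested genes fell. H2A and H2B genes with the octamer had medians of -1.10 in DP1 and -0.55 in DP2, and those without it -1.12 and -0.50. Genes with TATAAA had a median of -1.15 in DP1 and -0.46 in DP2, and those without it -1.07 and -0.35. Their DP2 sums in Hdac3KO were 76.3% of WT with TATAAA and 97.8% without it. The sums without it, 2294 FPKM in Hdac3KO DP2 and 2345 FPKM in WT DP2, lean on Hist2h2bb. That gene held 829 and 624 FPKM of them and was not called in DP2. No test of these splits was made.

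Genes that act with the histone genes were taken from lists chosen with earlier results of these data known. Of the factors that transcribe and process histone mRNA, 2 of 20 tested fell and 1 rose in Hdac3KO DP1, 0 fell and 1 rose of 20 in Hdac3KO DP2, 3 of 21 fell in WT DP2 relative to WT DP1 and 2 of 20 fell in Hdac3KO DP2 relative to Hdac3KO DP1. Of all tested genes 12.9% fell and 10.7% rose in Hdac3KO DP1, 4.32% fell and 6.44% rose in Hdac3KO DP2, 16.8% fell in WT DP2 and 4.65% fell in Hdac3KO DP2 relative to Hdac3KO DP1. Slbp, which binds the stem-loop, had 123 FPKM in Hdac3KO DP1 and 219.9 FPKM in WT DP1 (-0.84 ± 0.26, q = 0.00882 in the authors' deposited table). It also fell with stage, to 72.7 FPKM in WT DP2, against 249 FPKM in WT DP1 (-1.77 ± 0.44, q = 0.000835 in the authors' deposited table). Npat, the coactivator of histone gene transcription at the histone locus body, did not pass, with 23.6 FPKM in Hdac3KO DP1 and 17.2 FPKM in WT DP1 (0.46 ± 0.25, q = 0.177 in the authors' deposited table). Zcchc6, which adds uridines to mRNA ends, was the factor that rose in DP1, with 81.6 FPKM in Hdac3KO DP1 and 37.9 FPKM in WT DP1 (1.11 ± 0.27, q = 0.000879 in the authors' deposited table). In DP2 the factor that rose was Upf1, a helicase of mRNA decay, with 53.2 FPKM in Hdac3KO DP2 and 33.0 FPKM in WT DP2 (0.69 ± 0.23, q = 0.0336 in the authors' deposited table).

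Chaperones that carry histones to DNA and enzymes of DNA replication were read in the same way, again with no length curve subtracted. Of 19 chaperone genes tested, 6 fell and 1 rose in Hdac3KO DP1 (median -0.58), 1 fell in Hdac3KO DP2 (median -0.27), 11 fell and 1 rose in WT DP2 relative to WT DP1, and 7 fell in Hdac3KO DP2 relative to Hdac3KO DP1. All tested genes fell in 12.9%, 4.32%, 16.8% and 4.65% of cases in these 4 comparisons, and the 1 of 19 in DP2 is near that share. Of all tested genes 10.7% rose in Hdac3KO DP1 and 5.56% rose in WT DP2 relative to WT DP1. Mcm2, a helicase subunit that also binds H3 and H4, had 61.0 FPKM in Hdac3KO DP1 and 119 FPKM in WT DP1 (-0.97 ± 0.26, q = 0.00255 in the authors' deposited table). Atrx, which places a variant H3, was the chaperone that rose, with 173.8 FPKM in Hdac3KO DP1 and 82.3 FPKM in WT DP1 (1.08 ± 0.28, q = 0.00154 in the authors' deposited table). Hat1, which acetylates new H4, was the 1 chaperone gene that fell in DP2, with 25.9 FPKM in Hdac3KO DP2 and 50.7 FPKM in WT DP2 (-0.97 ± 0.33, q = 0.0321 in the authors' deposited table). Chaf1a, the large subunit of the assembly factor CAF-1, had the largest chaperone change that passed in both stage comparisons, with log2 changes of -2.38 ± 0.59 in WT and -2.22 ± 0.55 in Hdac3KO. Of 20 S phase enzymes, 12 fell in Hdac3KO DP1 (median -0.79), 7 in Hdac3KO DP2 (median -0.67), and 18 in each stage comparison (medians -1.93 in WT and -1.69 in Hdac3KO), and 0 rose in any, beside the same 12.9%, 4.32%, 16.8% and 4.65% of all tested genes. Mcm5, a subunit of the replicative helicase, had the largest change that passed in DP1, with 48.2 FPKM in Hdac3KO DP1 and 112 FPKM in WT DP1 (-1.22 ± 0.30, q = 0.000879 in the authors' deposited table). Ccne2, the cyclin E2 gene, had the largest that passed in DP2, with 7.65 FPKM in Hdac3KO DP2 and 33.3 FPKM in WT DP2 (-2.12 ± 0.74, q = 0.0415 in the authors' deposited table). The shares called lower in DP2 were 7 of 20 for these enzymes and 4 of 57 for the histone genes, and the difference between them was not tested.

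Histone genes of a list named replication-independent gave a further view, and whether their mRNAs follow S phase was not tested. No length curve was subtracted for this list either. Of 10 replication-independent histone genes tested, 7 fell and 0 rose in Hdac3KO DP1 (median -0.84), 2 fell and 1 rose in Hdac3KO DP2 (median -0.17), 7 fell in WT DP2 relative to WT DP1 (median -1.61) and 5 fell in Hdac3KO DP2 relative to Hdac3KO DP1 (median -0.67). The shares of all tested genes that fell were again 12.9%, 4.32%, 16.8% and 4.65%, and 6.44% rose in Hdac3KO DP2. H2afz, which encodes the variant H2A.Z, had 238 FPKM in Hdac3KO DP1 and 620.2 FPKM in WT DP1 (-1.38 ± 0.34, q = 0.000879 in the authors' deposited table). H1f0, a linker histone of cells that have left the cycle, had 5.93 FPKM in Hdac3KO DP1 and 18.4 FPKM in WT DP1 (-1.63 ± 0.40, q = 0.000879 in the authors' deposited table). In DP2 the largest change that passed was again that of H1f0, with 4.62 FPKM in Hdac3KO DP2 and 9.17 FPKM in WT DP2 (-0.99 ± 0.34, q = 0.0370 in the authors' deposited table). H2afx, the variant that is phosphorylated at DNA breaks, had 51.2 FPKM in WT DP2 and 272 FPKM in WT DP1 (-2.41 ± 0.59, q = 0.000835 in the authors' deposited table). H2afy, which encodes macroH2A, was the gene of this list that rose, with 202 FPKM in Hdac3KO DP2 and 127.0 FPKM in WT DP2 (0.67 ± 0.23, q = 0.0395 in the authors' deposited table).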

How the data were processed

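RNA from sorted thymocytes was sequenced with the Clontech SMARTer Stranded kit after removal of ribosomal RNA, per the labels' protocols. Per the submitters' processing notes the tools included Cuffdiff 2.1.1, TopHat2 2.0.11 and Trimmomatic 0.32, and the build was mm10. The annotation and the Cuffdiff settings are not given in the sources used here. Each of the 4 deposited tables holds 1 FPKM per gene and group, made by the authors from 2 libraries a group, and the authors' p-value and q-value of 1 comparison. Log2 changes were recomputed here from the deposited FPKM with no pseudocount. Nothing says that the libraries came from separate animals, so p-values reflect no more than the variation among these libraries, each from pooled RNA.

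A gene was tested where the deposited status was OK and called at a deposited q of 0.05 or less. The SE was worked back as the absolute log2 change over the z value that matches the deposited p. It is an upper bound at the smallest p, 5e-05, and imprecise for changes near 0. Differences between stages were tested by a normal test of the 2 effects with Benjamini-Hochberg adjustment over all genes. The length curve was a lowess fit (fraction 0.3) of log2 change on log2 longest GENCODE M21 transcript over genes that reached 10 FPKM in each of the 2 groups. Scripts ran in Python 3.11.15 with pandas 2.3.3, scipy 1.17.1 and statsmodels 0.14.6 and were tested on simulated data. The depth of each library is unknown, and no counting interval was made.

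The genes and lists were chosen with earlier results of these data known. Genes named are, for each class, the 2 of highest mean FPKM in the genotype tables, the called gene of largest change in each direction in each table among those with at least 5 FPKM in a group, and every gene called against the majority. Hist1h1c, Hist1h1d, Hist1h1t, Hist1h2ac, Hist1h2ba, Hist1h4n, Hist1h2bj, Hist1h3f and Hist3h2a were named after their values were seen. From each list the called genes of largest change were named, with Npat and H2afz named outside that rule after their values were seen.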

Additional observations from a re-analysis of the deposited data

Results flagged for a closer look

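The genotype effect differed between the stages by a test of the difference itself for 3 histone genes, a count that fell to 0 with the length curve subtracted, to 1 after centring on all genes and to 0 with the SE multiplied by 1.5. The effect in DP2 minus that in DP1 was 1.37 for Hist2h2bb (q = 0.0227), 1.25 for Hist1h3f (q = 0.0383) and 1.23 for Hist1h4d (q = 0.0421), by a normal test with Benjamini-Hochberg adjustment over all genes. Each of the 3 was called lower in Hdac3KO DP1 relative to WT DP1, and none was called in Hdac3KO DP2 relative to WT DP2. The value of Hist1h3f rests on an SE that its near-zero change in DP2 determines poorly. The table of the stages in Hdac3KO and that of the stages in WT, built from the same libraries with other normalizations, called 0 of 58 genes, with 6 at an unadjusted p under 0.05. There 56 of the 58 differences were positive, and the median SE was 0.74, against 0.46 through the genotype tables.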

How the results depend on the processing

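Alternative values were set beside the reported ones. A count was held to be the same where it was equal or within a factor of 1.5. A median was held to be the same where it kept its sign and moved by less than the median SE. By these rules 65 of 80 alternative values stayed the same and 15 did not. The 65 include counts of 0 genes called higher that stayed at 0. Subtracting the length curve left 4 genes lower in Hdac3KO DP1, also with a curve fitted without the histone genes, an alternative chosen after seeing the data, and the DP1 medians became -0.48 and -0.53. In WT DP2 relative to WT DP1 the 2 curves left 16 and 21 genes lower, with medians of -1.44 and -1.53. In DP2, 1 gene was lower at a q of 0.01, 2 were lower with a log2 change of at least 1, and 8 were lower with the curve fitted without the histone genes. Of the 3 genes whose genotype effect differed between stages, 0 were called through the stage tables, 1 after centring on all genes, 0 after the length curve and 0 with the SE multiplied by 1.5. The cause of these changes was not tested beyond the SE, which is an upper bound at the smallest p. No paired analysis was possible because the tables hold 1 value per group, and leaving out each replicate was not run for the same reason. Depth is unknown, so no limit of detection is given.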

Other observations

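Of the 3 entries that join a pair of histone symbols, Hist1h4m with Hist1h4n had 46.1 FPKM in Hdac3KO DP1 and 190.7 FPKM in WT DP1 (log2 change -2.05, q = 0.000879 in the authors' deposited table). Hist2h2aa1 with Hist2h2aa2 had 7.12 FPKM in Hdac3KO DP1 and 6.90 FPKM in WT DP1 (log2 change 0.05, q = 0.972 in the authors' deposited table), and 3.48 FPKM in Hdac3KO DP2 and 0.402 FPKM in WT DP2 (q = 0.484). Hist1h2ao with Hist1h2ap was not tested.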
